A study of Mus musculus with 9 samples.

Results

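Collagen genes were examined in ventricles of mice at postnatal day 7, in 5 Arid1a f/f control libraries and 4 aMHC-Cre;Arid1a f/f cKO libraries. Members were all protein-coding genes with a symbol of the form Col, number, a, number, which gave 44 of the 38293 genes in the count table. Both groups carried floxed Arid1a, the gene of a subunit that brings SWI/SNF chromatin remodellers to DNA, and the cKO group also carried Cre recombinase under the cardiomyocyte promoter aMHC (alpha myosin heavy chain). Cre and the deletion therefore cannot be told apart, and fibroblasts, endothelial cells and mural cells, which make most of the heart's collagen, are not cells in which this promoter is expected to act. The labels number the libraries without naming animals, so p-values measure the spread between libraries.

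Collagens are extracellular proteins whose chains wind around each other into a long helix. Fibrillar collagens form the load-bearing fibres between heart muscle cells, type IV collagens form the sheet-like basement membrane around each myocyte and capillary, and the other classes decorate fibrils, anchor membranes, build beaded filaments or span the plasma membrane. In the heart after birth the collagen network is laid down as the ventricle grows, and fibrosis is an excess of the same matrix. The authors of the data reported no sign of more fibrosis in stained sections of cKO hearts.

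Libraries held 31011055 to 40073801 counts, and Spearman correlations within a group lay between 0.982 and 0.995. The log2 change of Arid1a in cKO was -0.39 (standard error, SE, 0.06) with an adjusted p of 0.00132, the mean going from 139.8 ± 8.84 to 106.4 ± 5.44 CPM (read counts scaled to a common library size, SD, n = 5 and 4), with every cKO library below every control library. The libraries also formed sets that crossed genotype: the ribosomal gene copy Rps3a3 was under 10 CPM in 2 controls (replicates 1 and 2) and 3 cKO libraries (replicates 1, 2 and 3), and between 99.7 and 112 CPM in the other libraries (controls 3, 4 and 5 and cKO 4). Values within these low and high sets are given as differences in mean log2(CPM + 0.5), and the high set has only 1 cKO library. Gene changes also followed GC content to different degrees. The correlation of a library's deviations with GC content, taken across genes, which are not independent replicates, ran from -0.38 in control replicate 4 to 0.46 in cKO replicate 2.

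The collagens together took a larger share of the counts in cKO. Their share was 1.18%, 1.13%, 1.05%, 0.962% and 1.17% in the controls, listed from replicate 1 to 5, and 1.32%, 1.56%, 1.32% and 1.38% in the cKO libraries, listed from replicate 1 to 4. All cKO libraries lay above all controls, and cKO replicate 2 was the highest. This share is dominated by a few genes, since fibrillar collagens held 52.0% to 55.5% of the collagen CPM in controls and 49.7% to 57.7% in cKO, and basement membrane collagens held 32.6% to 36.2% and 30.1% to 37.9%. In RNA from whole ventricles, a different number of collagen-producing cells and a different amount of collagen RNA per cell cannot be told apart.

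**Figure D1:**
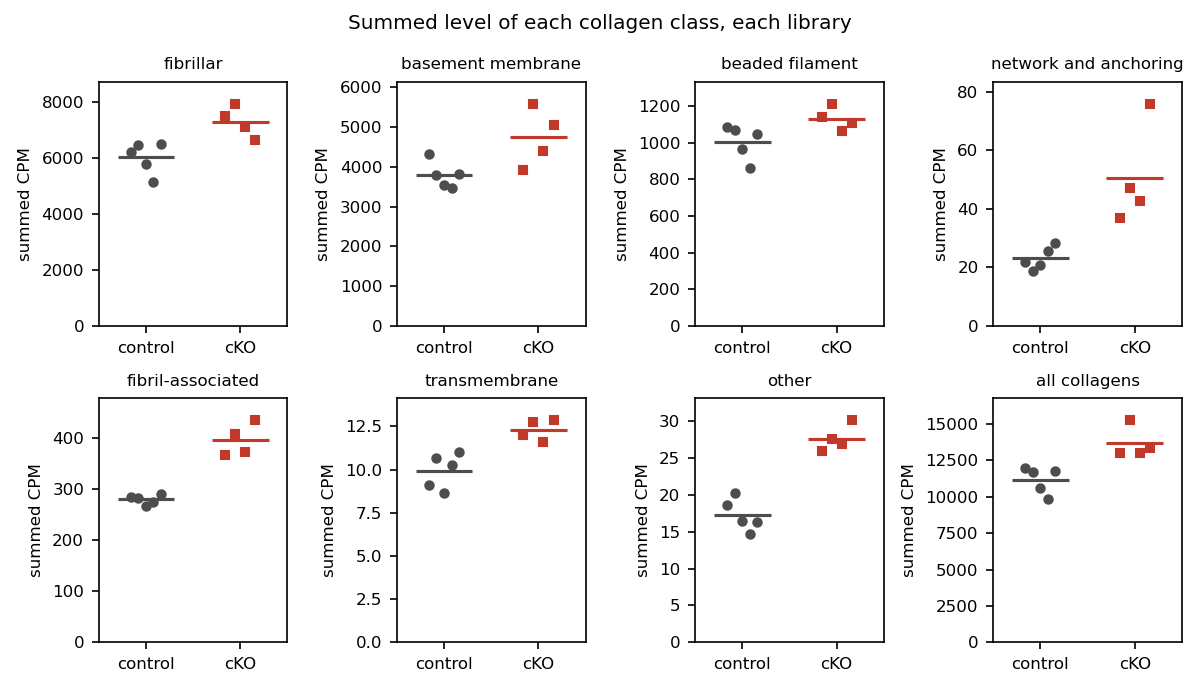
Summed CPM of the genes of each collagen class and of all 44 collagens, 1 point per library, for 5 control (grey circles) and 4 cKO (red squares) libraries, with bars at the group means and axes starting at 0. The cKO libraries lie above all controls for every class sum except the basement membrane and beaded filament classes, where the groups overlap.

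Of the 44 collagen genes, 39 had enough counts to be tested. Between cKO and control, 8 were called higher and 1 was called lower, where called means that the adjusted p was under 0.05 and that the level differed more than 1.5-fold. Over all 15318 tested genes 4.01% were called higher and 2.72% lower, or 6.72% in either direction. Without the fold threshold 16 collagens passed upward and 2 downward, against 8.25% and 8.03% of all tested genes, and 21 did not pass. Each called collagen had a control mean at or below 16.4 CPM, as did 13 tested collagens that were not called. The 14 collagens above 100 CPM in controls had changes of 0.06 to 0.52 on the log2 scale, and 5 of them passed the adjusted p without reaching the fold threshold.

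The estimates pointed upward for 35 of the 39 tested collagens. Their median log2 change was 0.34, beside 0.01 for all tested genes. In 15 tested collagens every cKO library lay above every control, and in 2 every cKO library lay below, against 8.16% and 8.58% of all tested genes. The median was 0.20 within the low set and 0.43 within the high set, and 33 of the 39 had the same sign in both sets, beside 10806 of all 15318 tested genes.

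**Figure D2:**
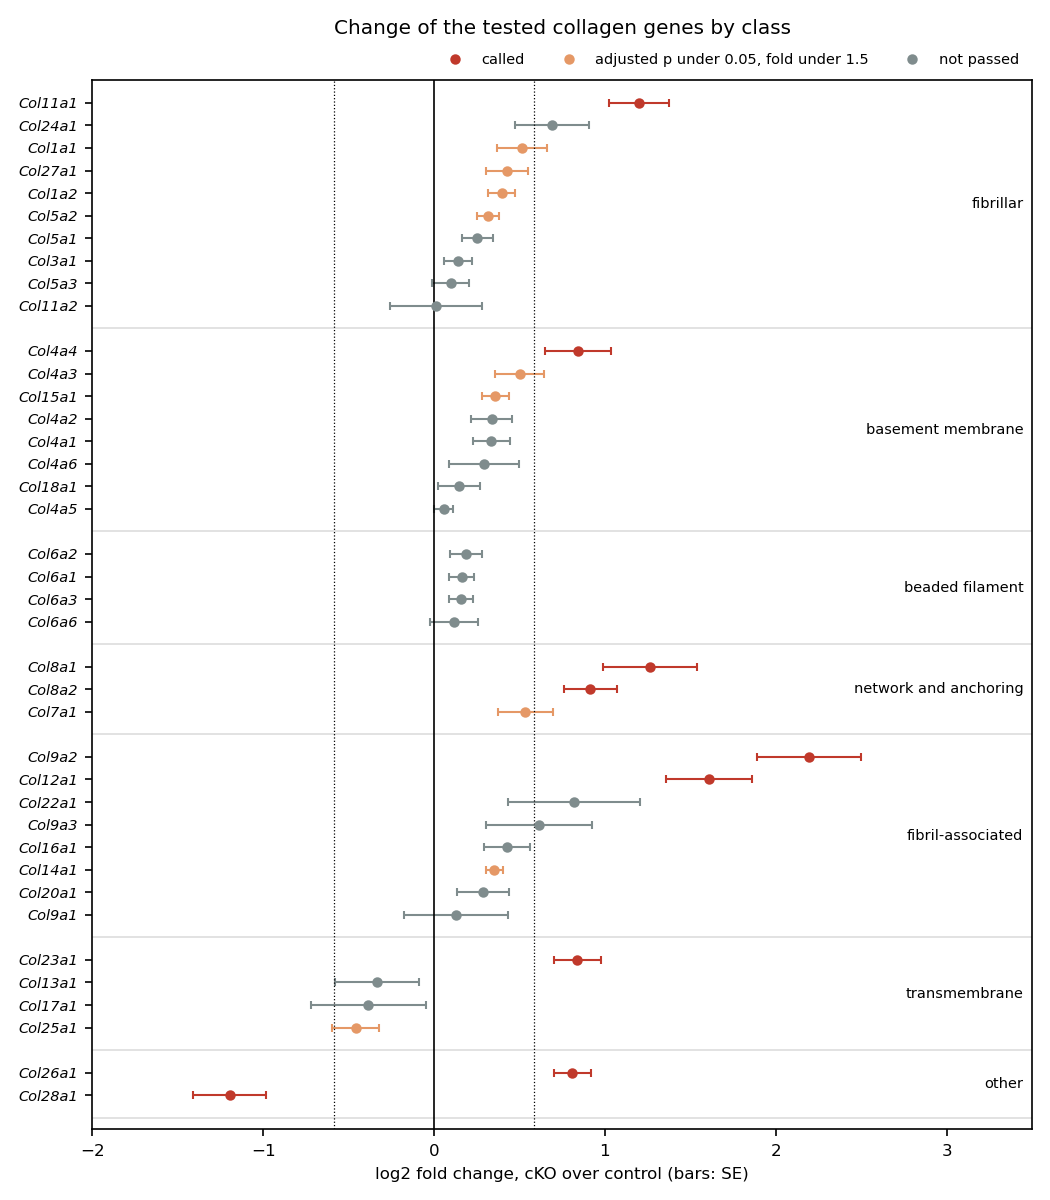
Log2 fold change of cKO over control with its SE for each of the 39 tested collagens, grouped by class. Red marks the 9 called genes, orange those that passed the adjusted p alone and grey those that did not pass, and dotted lines mark a 1.5-fold change; Col9a2 at 2.19 and Col28a1 at -1.20 are the ends of the range.

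The called genes were Col9a2, Col12a1, Col8a1, Col11a1, Col8a2, Col4a4, Col23a1 and Col26a1, which rose, and Col28a1, which fell. All 9 had no overlap between the groups, which is likely for genes picked by their difference between these same libraries. At these thresholds each of the 9 stayed called under every scaling, filter, test and covariate tried and with any single library left out. The exception was the fit to the 5 low-set libraries, which called Col8a1, Col8a2, Col11a1 and Col12a1, added Col24a1, and did not call the other 5. That fit also called fewer genes over all, 3.97% of 15599 tested (2.01% higher and 1.97% lower) against 6.72%. In it 8 collagens passed upward and 0 downward by edgeR, with 1 downward at an unadjusted p under 0.05; DESeq2 was not run on the low set alone. Over all genes 2.57% passed upward and 2.87% downward in this fit. Genes that passed in all libraries but not there included Col1a1, Col4a3, Col7a1, Col25a1 and Col27a1. The log2 change there was 0.51 for Col4a3 (adjusted p = 0.207) and -0.46 for Col25a1 (0.303), close to 0.50 and -0.46 in all libraries. It was smaller there for Col1a1 (0.36 against 0.52, adjusted p = 0.23), Col7a1 (0.37 against 0.53, 0.483) and Col27a1 (0.35 against 0.43, 0.383).

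**Figure D3:**
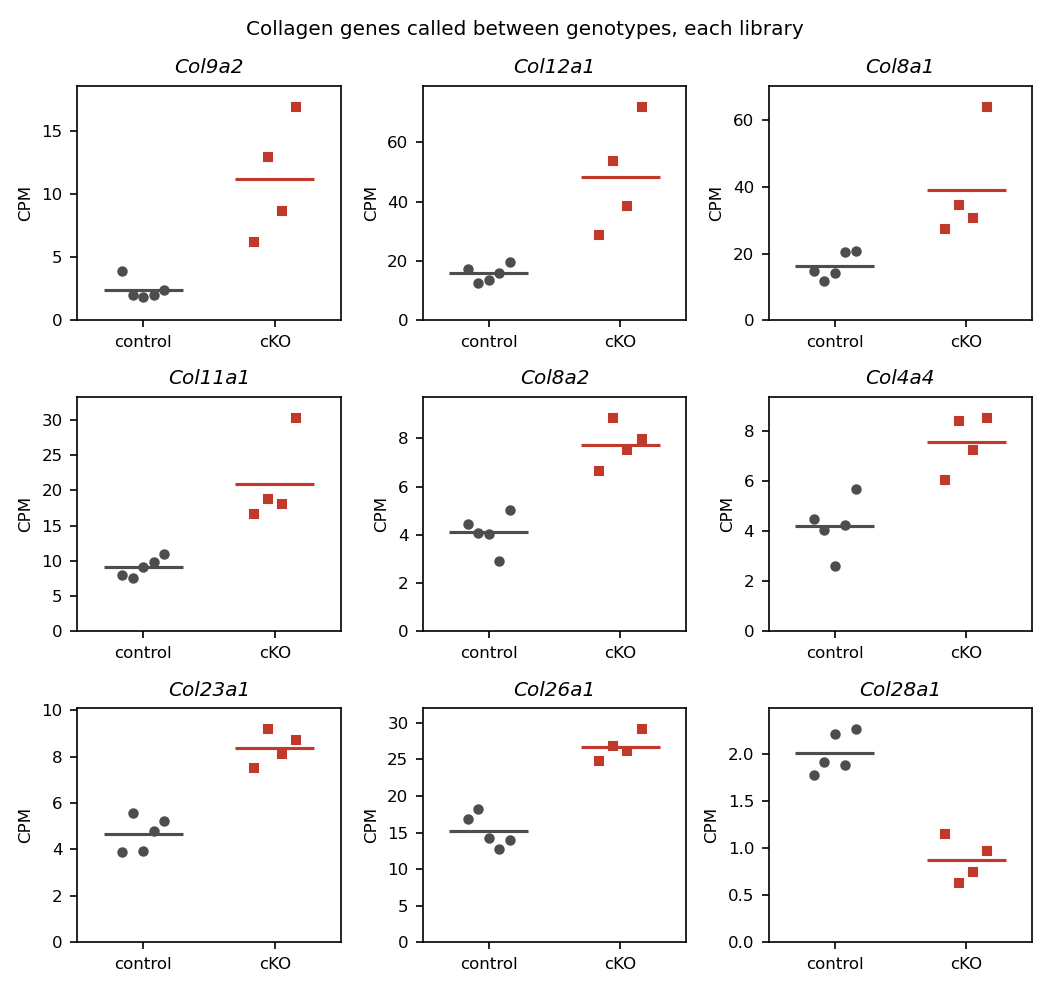
CPM of the 9 called collagens, 1 point per library, for 5 control (grey circles) and 4 cKO (red squares) libraries, with bars at the group means and axes starting at 0. No cKO point overlaps the control points in any panel, and cKO replicate 4, the last square, is the highest for Col9a2, Col12a1, Col8a1, Col11a1, Col4a4 and Col26a1.

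Promoters of collagens on both sides of the comparison are shown because most estimates pointed the same way. RefSeq on GRCm38.p6 gave the 250 bases before the transcript start of 35 of the 44 genes; Col1a1, Col2a1, Col4a3, Col5a2, Col9a3, Col12a1, Col14a1, Col22a1 and Col26a1 had no entry. Printed are 3 genes called higher, the gene called lower, and Col3a1, the collagen with the highest level per length, none of which overlaps an annotated exon. They lie at chr16:57754738-57754987 on the minus strand (Col8a1), chr3:114030290-114030539 on the plus strand (Col11a1), chr11:51289670-51289919 on the plus strand (Col23a1), chr6:8192618-8192867 on the minus strand (Col28a1) and chr1:45311288-45311537 on the plus strand (Col3a1). Each reads 5′ to 3′ toward the gene, and capitals mark matches on either strand to GGGCGG (the Sp1 box), CCAAT (the NF-Y box), GGAATG (the TEAD site) or TGANTCA (the AP-1 site).
Col8a1: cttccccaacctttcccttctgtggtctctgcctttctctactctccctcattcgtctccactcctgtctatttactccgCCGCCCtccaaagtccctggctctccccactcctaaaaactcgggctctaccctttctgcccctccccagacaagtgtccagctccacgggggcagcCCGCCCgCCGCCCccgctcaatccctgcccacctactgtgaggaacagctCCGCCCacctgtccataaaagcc
Col11a1: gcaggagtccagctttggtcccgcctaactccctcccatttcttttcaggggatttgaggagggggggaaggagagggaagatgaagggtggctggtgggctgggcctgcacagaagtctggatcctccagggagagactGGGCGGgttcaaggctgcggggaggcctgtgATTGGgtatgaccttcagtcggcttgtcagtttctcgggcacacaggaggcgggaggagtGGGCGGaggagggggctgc
Col23a1: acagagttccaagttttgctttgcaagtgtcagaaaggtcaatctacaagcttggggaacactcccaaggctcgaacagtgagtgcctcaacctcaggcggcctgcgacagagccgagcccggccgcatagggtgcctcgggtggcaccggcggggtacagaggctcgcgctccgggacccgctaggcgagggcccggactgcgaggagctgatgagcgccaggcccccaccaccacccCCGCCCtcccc
Col28a1: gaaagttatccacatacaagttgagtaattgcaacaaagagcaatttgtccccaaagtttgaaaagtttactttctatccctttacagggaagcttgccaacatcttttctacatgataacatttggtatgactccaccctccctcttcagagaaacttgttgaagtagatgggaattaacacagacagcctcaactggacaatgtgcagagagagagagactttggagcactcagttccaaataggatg
Col3a1: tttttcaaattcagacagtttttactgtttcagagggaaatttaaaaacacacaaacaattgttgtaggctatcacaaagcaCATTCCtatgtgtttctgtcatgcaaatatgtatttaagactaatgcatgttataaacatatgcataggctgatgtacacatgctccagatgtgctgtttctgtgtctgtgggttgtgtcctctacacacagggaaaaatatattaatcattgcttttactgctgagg
The Col8a1 window held 4 copies of the Sp1 box, Col11a1 held 2 with 1 CCAAT box, Col23a1 held 1, Col3a1 held 1 TEAD site, and Col28a1 held none of the motifs. Among the 35 collagen windows 60.0% had an Sp1 box, against 32.7% of 32851 RefSeq windows of the same length, and among the 10 that belonged to genes passing upward 8 did. The 32851 are all windows listed, whereas each collagen entered only with the window nearest its annotated start. The TEAD site was in 2 of the 35 (5.71%; 12.6% of all windows) and in 0 of the 10, the AP-1 site in 1 (2.86%; 6.75%) and in 0 of the 10, and CCAAT in 12 (34.3%; 33.8%) and in 3 of the 10. No matches to different motifs overlapped in the collagen windows. The CCAAT and Sp1 motifs were picked after the values and sequences had been seen, and a match describes letters and not a bound site.

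Ranked by level per length, Col3a1 stood first in controls at 325 CPM per kb of exon, followed by Col4a1 at 254, Col4a2 at 183, Col1a1 at 152, Col1a2 at 92.9 and Col6a1 at 90.5 CPM per kb. Over the control libraries Col3a1 ranged from 284 to 362 CPM per kb and Col4a1 from 234 to 289, so their ranges met, and Col1a2 (79.0 to 103) and Col6a1 (78.2 to 97.9) overlapped throughout. Col4a1 and Col4a2 did not overlap, since Col4a2 ranged from 165 to 213 CPM per kb. At the other end of the tested collagens, Col22a1 and Col17a1 were at 0.0811 and 0.0806 CPM per kb.

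**Figure D4:**
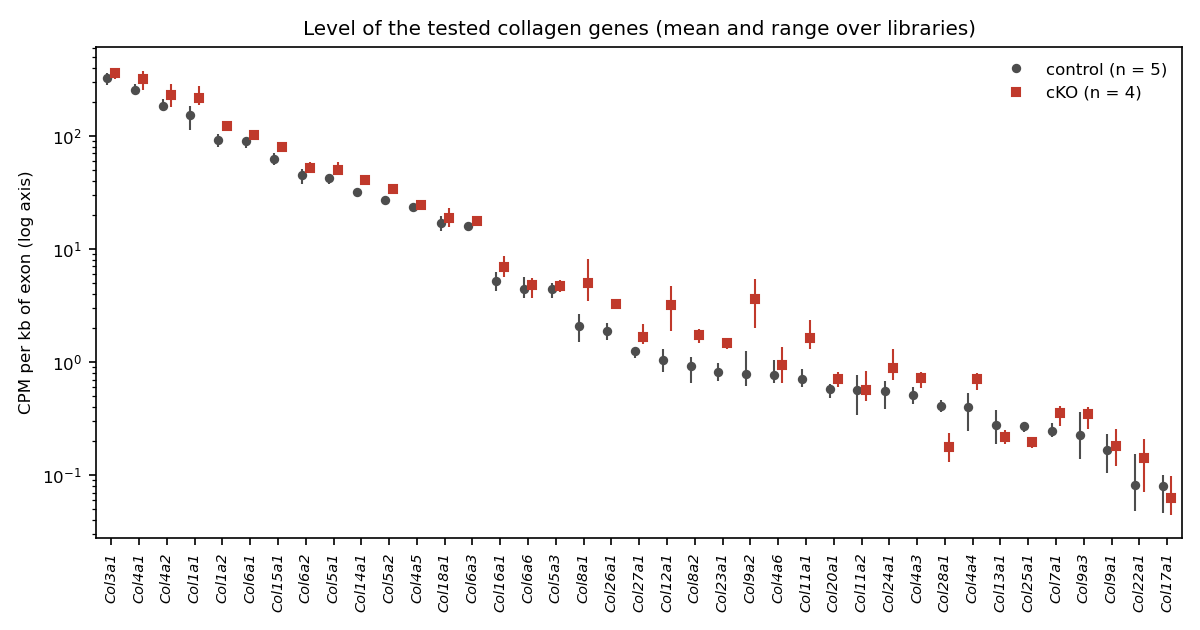
Level of the 39 tested collagens in CPM per kb of exon on a log axis, ordered by the control mean, with points at group means and lines over the range of the libraries (5 control, grey; 4 cKO, red). Col3a1 is highest at 325 CPM per kb in controls, and Col9a2 has the widest gap between group means, from 0.788 to 3.61 CPM per kb.

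Among fibrillar collagens, whose chains assemble into banded fibres, 11 are annotated and 10 were tested. The gene Col11a1 was called, 5 of the 10 passed upward and 0 downward by edgeR (0 also at an unadjusted p under 0.05 and by DESeq2), and the median log2 change was 0.36. Col11a1 encodes a chain of type XI collagen, which starts fibrils and limits their width in cartilage. It was measured at 7.94, 7.59, 9.09, 9.88 and 11.0 CPM in the controls, replicates 1 to 5 in that order, and at 16.6, 18.7, 18.0 and 30.2 CPM in the cKO libraries, replicates 1 to 4; the same order is kept for every gene. The groups did not overlap, and cKO replicate 4 stood above the others. The change was 2.30-fold (log2 1.20, SE 0.18, adjusted p = 0.000751), and it was 1.14 in the low set and 1.55 in the high set.

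Type I collagen, the main fibril of heart and bone, is built from the products of Col1a1 and Col1a2. Col1a1 was at 1214, 1122, 908, 744 and 1009.6 CPM in controls and at 1349, 1812, 1329 and 1231 CPM in cKO, so that every cKO library exceeded every control. Its log2 change was 0.52 (SE 0.15, adjusted p = 0.0346). The adjusted p rose above 0.05 without control replicate 3 (0.0802), control replicate 5 (0.073), cKO replicate 1 (0.0529), cKO replicate 2 (0.0946) or cKO replicate 3 (0.0539), and with no filter on low counts (0.076). Col1a2 was at 1201, 1282, 1088, 982 and 1216 CPM in controls and 1549, 1604, 1518 and 1400.4 CPM in cKO. Its cKO libraries were tightly grouped above the controls, with a log2 change of 0.40 (SE 0.08, adjusted p = 0.00574), and it passed in all 20 alternative fits.

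Col3a1, which encodes the type III collagen of pliable fibres, did not pass. It was at 3099.6, 3346, 3154, 2790.1 and 3555 CPM in controls and at 3811, 3620.1, 3481 and 3124 CPM in cKO. The groups overlapped, with cKO replicate 4 below 3 of the controls, and the log2 change was 0.14 (SE 0.08, adjusted p = 0.284). Col5a2, a chain of the type V collagen that nucleates type I fibrils, was at 245, 265, 248, 268 and 285 CPM in controls and at 315, 318, 314 and 359 CPM in cKO. Every cKO library was above every control and the log2 change was 0.32 (SE 0.07, adjusted p = 0.00657). In the low set alone the log2 change was 0.31, but the adjusted p was 0.0669. Col27a1, a minor fibrillar chain found in cartilage, was at 17.4, 17.3, 15.8, 14.1 and 16.9 CPM in controls and at 19.3, 28.0, 18.7 and 21.5 CPM in cKO. The groups did not overlap and the log2 change was 0.43 (SE 0.12, adjusted p = 0.0319), but the adjusted p rose to between 0.0619 and 0.0767 without control replicate 3, 4 or 5 or cKO replicate 2 or 4.

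Of the remaining fibrillar genes, Col5a1, Col5a3, Col11a2 and Col24a1 did not pass, with log2 changes of 0.25, 0.10, 0.01 and 0.69. Col5a1 passed after removal of trends with GC content and length (log2 0.18, adjusted p = 0.019). Col24a1, a minor fibrillar chain, had every cKO library above every control (highest control 5.21 CPM, lowest cKO 5.32 CPM) and an adjusted p of 0.0505; it was called with DESeq2 (0.016), with upper-quartile scaling (0.0488), with either other filter on low counts, with the replicate number as a block (0.0186), with the library set as a term (0.000267), in the low set alone (0.0426), after removal of trends with GC content and length (0.0363) and without cKO replicate 1 (0.0361). Col2a1, the main fibrillar collagen of cartilage, had 2 to 8 counts per library and was not tested.

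Basement membrane collagens include 6 type IV chains and the multiplexins Col15a1 and Col18a1. All 8 genes were tested, 1 was called higher, 3 passed upward and 0 downward by edgeR (0 also at an unadjusted p under 0.05 and by DESeq2), and the median log2 change was 0.34. The chain genes are arranged head to head in the mouse genome: Col4a1 and Col4a2 on chromosome 8, Col4a3 and Col4a4 on chromosome 1, and Col4a5 and Col4a6 on chromosome X. The annotated exons of Col4a1 (chr8:11198423-11312826) and Col4a2 (chr8:11312805-11449287) share 22 bases at their starts, on opposite strands.

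Col4a1 and Col4a2 encode the chains present in nearly all basement membranes. Col4a1 was at 2159.8, 1848, 1802, 1746 and 1916 CPM in controls and at 1918, 2828, 2212 and 2603 CPM in cKO. Control replicate 1 and cKO replicates 2 and 4 were high, the groups overlapped, and the log2 change was 0.34 (SE 0.11, adjusted p = 0.0511). Col4a2 was at 1409, 1227, 1113, 1091 and 1204 CPM in controls and at 1202, 1893, 1411 and 1603 CPM in cKO, with the same libraries high and a log2 change of 0.34 (SE 0.12, adjusted p = 0.0792). Control replicate 1 and cKO replicate 2 also had the strongest positive correlations of deviation with GC content, at 0.32 and 0.46. After removal of trends with GC content and length, a setting chosen after the data were seen, the log2 changes were 0.26 and 0.21 with adjusted p of 0.019 for Col4a1 and 0.0319 for Col4a2. Both also passed without control replicate 1 (0.0324 and 0.0445) or cKO replicate 1 (0.00994 and 0.0173), and with DESeq2 (0.0245 and 0.0466), and Col4a1 passed with upper-quartile scaling (0.0454). In the low set alone the adjusted p were 0.58 and 0.679.

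Col4a3 and Col4a4 encode chains of the specialised basement membrane of kidney glomeruli, lung and cochlea and were scarce here. Col4a4 was at 4.51, 4.05, 2.63, 4.25 and 5.69 CPM in controls and at 6.07, 8.43, 7.24 and 8.52 CPM in cKO, a 1.79-fold rise with no overlap (log2 0.84, SE 0.19, adjusted p = 0.0113). In the low set alone its adjusted p was 0.0721, with a log2 change of 0.76. Col4a3 was at 5.33, 4.58, 4.27, 5.51 and 6.05 CPM in controls and at 7.15, 5.83, 8.14 and 7.97 CPM in cKO, so that cKO replicate 2 lay below control replicate 5. Its log2 change was 0.50 (SE 0.14, adjusted p = 0.0331), and the adjusted p rose to between 0.0523 and 0.0999 without control replicate 2 or 3 or cKO replicate 1, 3 or 4, and to 0.0517 with Xist as a covariate. Of the exon length of Col4a3, 5.65% is shared with a transcript on the opposite strand.

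Col15a1, a basement membrane zone collagen of muscle and capillaries, was at 446, 418, 362, 353 and 406 CPM in controls and at 489, 529, 476 and 539.8 CPM in cKO. Every cKO library was above every control and the log2 change was 0.36 (SE 0.08, adjusted p = 0.00863), while in the low set it was 0.21 with an adjusted p of 0.246. Col18a1, whose C-terminal fragment is endostatin, had a log2 change of 0.15 (adjusted p = 0.458). Col4a5 changed by 0.06 (SE 0.06, adjusted p = 0.548) and Col4a6 by 0.29 (SE 0.20, adjusted p = 0.373).

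Type VI collagens form beaded filaments that link cells to fibres. Of 6 annotated genes 4 were tested, and 0 passed in either direction by edgeR; 1 had an unadjusted p under 0.05, in the upward direction, and DESeq2 also passed 0. The median log2 change was 0.16. Col6a1 was at 419, 429, 379, 343 and 413 CPM in controls and at 456, 469, 428 and 419.5 CPM in cKO, with a log2 change of 0.16 (SE 0.07, adjusted p = 0.17). Col6a2 was at 425, 413, 354, 312 and 386 CPM in controls and at 419, 485, 404 and 413 CPM in cKO, with a log2 change of 0.19 (SE 0.09, adjusted p = 0.203). In both, control replicate 4 was the lowest library and the groups overlapped. Col6a3 and Col6a6 changed by 0.16 and 0.11. Col6a4 had 0 to 4 counts per library, and Col6a5 had 67 counts in control replicate 5 and 0 to 3 counts in each other library, so neither was tested. Control replicate 5 also had the highest levels of the epicardial markers Upk3b and Msln, at 23.0 and 22.9 CPM against at most 5.68 and 8.59 CPM in the other controls; their part in the Col6a5 count was not tested.

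The network and anchoring collagens showed the highest class median, 0.92 on the log2 scale, over only 3 tested genes. Of 4 annotated genes, 2 were called higher and all 3 tested ones passed upward. Col8a1 and Col8a2 encode the chains of type VIII collagen, a short-chain network former of vessel walls and of the corneal endothelial membrane. Col8a1 was at 14.9, 11.7, 14.2, 20.4 and 20.8 CPM in controls and at 27.4, 34.8, 30.9 and 63.9 CPM in cKO. No cKO library fell into the control range, cKO replicate 4 was far above the rest, and the change was 2.4-fold (log2 1.26, SE 0.28, adjusted p = 0.014). Within the sets it was 1.20 and 1.79.

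Col8a2 was at 4.45, 4.08, 4.04, 2.93 and 5.01 CPM in controls and at 6.66, 8.83, 7.50 and 7.97 CPM in cKO. The groups were separate, without an outstanding library, and the change was 1.89-fold (log2 0.92, SE 0.16, adjusted p = 0.00189). Col7a1, which forms the anchoring fibrils of skin, was at 2.50, 2.95, 2.52, 2.23 and 2.39 CPM in controls and at 2.77, 3.63, 4.17 and 4.02 CPM in cKO. The groups overlapped at cKO replicate 1, and the log2 change was 0.53 (SE 0.16, adjusted p = 0.0424). The adjusted p rose to between 0.0679 and 0.125 without control replicate 1, 3, 4 or 5 or cKO replicate 2, 3 or 4. The log2 change in these fits was 0.46 to 0.54. The adjusted p was also above 0.05 with no filter on low counts (0.0716), with Xist as a covariate (0.0501) and after removal of trends with GC content and length (0.0937). Col10a1, a marker of hypertrophic cartilage, had 0 to 4 counts per library.

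Fibril-associated collagens sit on the surface of fibrils through interrupted helices. Of 9 annotated genes 8 were tested, 2 were called higher, 3 passed upward and 0 downward by edgeR (0 also at an unadjusted p under 0.05 and by DESeq2), and the median log2 change was 0.52. Col9a2 rose most of all collagens tested. It encodes a chain of type IX collagen, which coats the type II fibrils of cartilage. It was at 3.88, 2.0, 1.88, 2.04 and 2.39 CPM in controls and at 6.19, 12.9, 8.66 and 16.9 CPM in cKO. Control replicate 1 was the highest control and still below every cKO library, and the cKO libraries were themselves widely spread. The change was 4.58-fold (log2 2.19, SE 0.30, adjusted p = 0.000631); it was 1.5 in the low set and 2.74 in the high set, and the fit to the low set alone gave 1.66 with an adjusted p of 0.0608.

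The partner chains of type IX collagen did not pass: Col9a1 had a log2 change of 0.13 (SE 0.30, adjusted p = 0.819) and Col9a3 one of 0.61 (SE 0.31, adjusted p = 0.211). For Col9a3, 6.07% of the exon length is shared with Tcfl5 on the opposite strand. Among 8 cartilage markers, of which 4 were tested, Sox9 (log2 0.76, adjusted p = 0.000361), a transcription factor of chondrocytes, and Comp (log2 1.54, adjusted p = 0.00295), a cartilage matrix protein, were called higher, while Acan (log2 -0.22, adjusted p = 0.289), the main proteoglycan of cartilage, and Hapln1 (log2 -0.03, adjusted p = 0.959), which links it to hyaluronan, did not pass. Their summed level was 20.8 to 23.5 CPM in controls and 27.7 to 31.5 CPM in cKO. The defining markers Matn1, Matn3, Cnmd and Ucma were at or below 0.550 CPM in every library and were not tested, and Col2a1 had at most 8 counts. At these low levels, Matn3 was at 0 CPM in all controls and at 0.187, 0.186, 0.0869 and 0.121 CPM in cKO. Cnmd was at 0 to 0.126 CPM in controls and at 0.186 to 0.550 CPM in cKO. For Matn1 and Ucma only the upper limit of 0.550 CPM is given, and no direction is read from genes at such counts. The part of cartilage cells in the changes of Col9a2 and Col11a1 was not tested.

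Col12a1 encodes type XII collagen, a fibril-associated collagen of tendon and of tissue under load. It was at 17.5, 12.5, 13.6, 16.1 and 19.7 CPM in controls and at 28.9, 53.7, 38.7 and 71.8 CPM in cKO. The cKO libraries were widely spread, all above the controls, and the change was 3.05-fold (log2 1.61, SE 0.25, adjusted p = 0.00255), with 1.38 in the low set and 2.11 in the high set. Col14a1, its close relative, was by contrast tightly measured: it was at 215, 226, 215, 224 and 228 CPM in controls and at 288, 276, 276 and 292 CPM in cKO. The groups were clearly separate and the change was 1.28-fold (log2 0.35, SE 0.05, adjusted p = 0.000641), passing in all 20 alternative fits.

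Col16a1, the next in level per length in this class, was at 42.1, 36.0, 31.8, 28.8 and 35.8 CPM in controls and at 37.9, 58.9, 42.1 and 48.6 CPM in cKO. The groups overlapped, and its log2 change of 0.43 (SE 0.13) had an adjusted p of 0.0505; the adjusted p was 0.0205 with DESeq2, 0.0455 with upper-quartile scaling, 0.0053 after removal of trends with GC content and length, 0.025 without control replicate 1 and 0.0209 without cKO replicate 1. Col20a1 and Col22a1 had log2 changes of 0.29 and 0.82 and did not pass, except Col22a1 without control replicate 1 (adjusted p = 0.0398). Col19a1 had 0 to 5 counts per library and was not tested.

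Transmembrane collagens carry a membrane-spanning segment and are shed from the cell surface. Of the 4 genes 1 passed upward and 1 downward, and the median log2 change was -0.36. Col23a1 was called higher: it was at 3.91, 5.59, 3.93, 4.78 and 5.21 CPM in controls and at 7.53, 9.17, 8.11 and 8.69 CPM in cKO, without overlap (1.79-fold, log2 0.84, SE 0.14, adjusted p = 0.00139). In the low set alone its log2 change was 0.80, with an adjusted p of 0.0656. Col25a1, which takes part in the innervation of muscle by motor neurons, was at 3.10, 3.74, 3.43, 3.68 and 3.56 CPM in controls and at 2.77, 2.44, 2.26 and 2.71 CPM in cKO. Every cKO library lay below every control and its log2 change was -0.46 (SE 0.14, adjusted p = 0.0419), but the adjusted p was 0.0647 to 0.117 without control replicate 2, 3, 4 or 5 or cKO replicate 2, 3 or 4, 0.089 with no filter on low counts and 0.0617 with Xist as a covariate. Col13a1, a collagen of the neuromuscular junction, was at 1.53, 0.869, 1.02, 1.20 and 1.75 CPM in controls and at 1.09, 0.901, 0.869 and 1.16 CPM in cKO. The groups overlapped, and its log2 change was -0.34 (SE 0.25, adjusted p = 0.394). Col17a1, a collagen of epidermal hemidesmosomes, had a log2 change of -0.38 (SE 0.34, adjusted p = 0.487).

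The remaining collagens, Col26a1 and Col28a1, were called in opposite directions. Col26a1 was at 16.9, 18.3, 14.3, 12.8 and 14.0 CPM in controls and at 24.8, 26.9, 26.1 and 29.1 CPM in cKO. The groups stood well apart, and the change was 1.75-fold (log2 0.81, SE 0.11, adjusted p = 0.000361, the smallest adjusted p among the tested collagens). Its size differed between the sets, at 0.55 and 1.06, and in the low set alone it passed (adjusted p = 0.0256) below the fold threshold.

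Col28a1 was the only collagen called lower. It encodes a collagen with von Willebrand factor A domains that is known from the surface of Schwann cells in peripheral nerve. It was at 1.78, 1.91, 2.22, 1.89 and 2.26 CPM in controls and at 1.15, 0.636, 0.753 and 0.968 CPM in cKO. No library of one group fell in the range of the other, and the level in cKO was 2.29-fold lower (log2 -1.20, SE 0.21, adjusted p = 0.00263). In the low set alone the log2 change was -1.13 with an adjusted p of 0.0975. The 5 Schwann cell markers had a median log2 change of -0.32 and 0 of them passed by edgeR, 0 also at an unadjusted p under 0.05 and by DESeq2. S100b, with the highest level per length among them, had a log2 change of -0.19 (adjusted p = 0.704). The summed level of the 5 markers was 4.84 to 8.11 CPM in controls and 2.94 to 6.35 CPM in cKO, no marker of the list was at 0 in all libraries, and their part in the fall of Col28a1 was not tested.

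Ratios between collagen chains, which do not depend on library scaling, were taken for chains of the same collagen type and for Col3a1 against Col1a1, which belong to different types. Each was compared with a two-sided exact permutation test over all 126 assignments of the libraries to the groups, in which the smallest possible p is 0.00794, with adjustment over 6 ratios. The ratio of Col3a1 to Col1a1 counts was 2.55, 2.98, 3.47, 3.75 and 3.52 in controls and 2.82, 2.0, 2.62 and 2.54 in cKO. Its mean was 3.26 ± 0.482 in controls (SD, n = 5) and 2.49 ± 0.353 in cKO (SD, n = 4), with overlap through control replicate 1. The log2 difference was -0.38 (exact permutation p = 0.0397, adjusted p = 0.238), so that it did not hold after adjustment; within the sets it was -0.17 and -0.50.

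The other ratios differed less. Col1a1 to Col1a2 was 0.862 ± 0.0932 in controls and 0.939 ± 0.127 in cKO (exact permutation p = 0.317, adjusted p = 0.845), and Col5a2 to Col5a1 was 0.735 ± 0.0806 and 0.770 ± 0.0918 (exact permutation p = 0.563, adjusted p = 0.845). For the type IV pair, Col4a2 to Col4a1 was 0.637 ± 0.0198 in controls and 0.637 ± 0.0231 in cKO, with a log2 difference of -0.00058 (exact permutation p = 0.984, adjusted p = 0.984). For type VI, Col6a2 to Col6a1 was 0.951 ± 0.0404 and 0.970 ± 0.050 (exact permutation p = 0.532, adjusted p = 0.845), and Col6a3 to Col6a1 was 0.482 ± 0.0335 and 0.479 ± 0.0391 (exact permutation p = 0.921, adjusted p = 0.984).

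**Figure D5:**
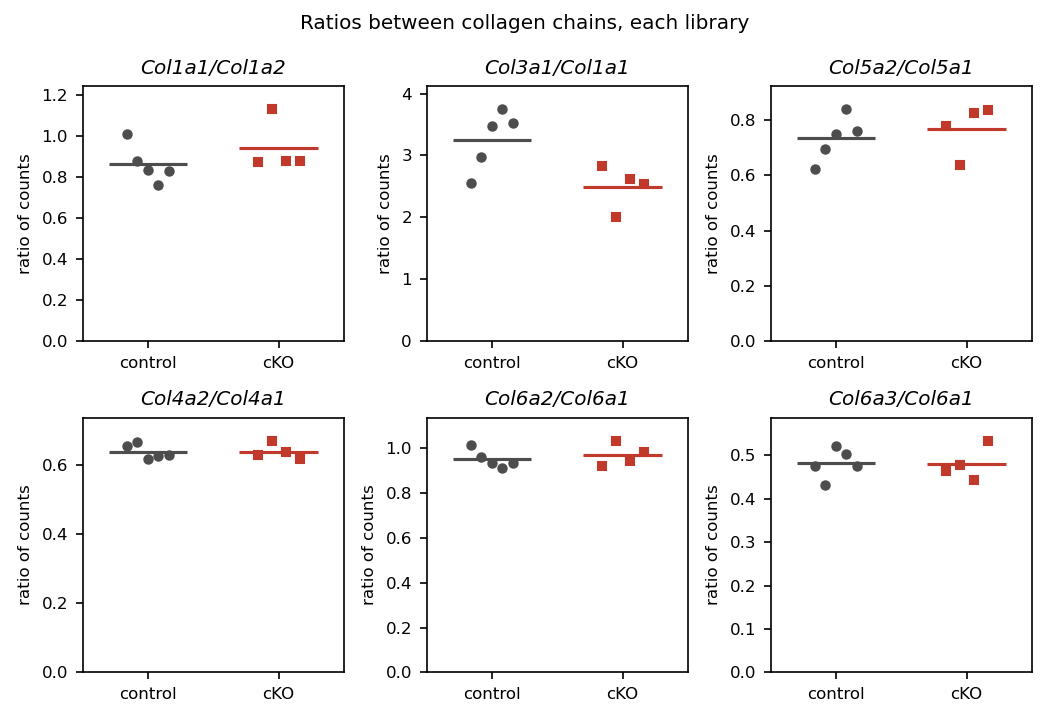
Ratio of raw counts between collagen chains, 1 point per library, for 5 control (grey circles) and 4 cKO (red squares) libraries, with bars at the group means and axes starting at 0. Col4a2/Col4a1 lies between 0.616 and 0.669 in all libraries, whereas Col3a1/Col1a1 runs from 2.0 to 3.75.

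Across the 9 libraries, with group means removed, the tested genes that followed Col1a1 most closely on the log2 CPM scale were Npdc1 (Pearson r = 0.998), Irf2bp1 (0.984), Ltbp3 (0.983), Hmga1 (0.981) and Rapgef3 (0.980). Those closest to Col4a1 were St3gal2 (0.986), Farsa (0.985), Ergic1 (0.983), Adsl (0.981) and its neighbour Col4a2 (0.980). These coefficients rest on 9 libraries that share depth and GC-related differences and are given as a description.

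Collagens are modified, trimmed, cross-linked, bound and degraded by other proteins, and 74 such genes were listed. Of the 69 tested, 6 were called higher and 2 lower, and 19 passed upward and 5 downward; the median log2 change was 0.13. Over all tested genes 4.01% were called higher and 2.72% lower, and 8.25% passed upward and 8.03% downward, so the downward counts were close to the background. In the low set alone 4 were called higher and 7 passed upward, where 2.01% of all tested genes were called higher and 2.57% passed upward. Among 22 genes of folding and modification, 7 passed upward and 2 downward. P3h2, a prolyl 3-hydroxylase that modifies type IV collagen, was called: it was at 6.29, 5.85, 7.62, 8.21 and 9.57 CPM in controls and at 19.3, 20.3, 23.3 and 38.3 CPM in cKO. The groups did not overlap and the change was 3.38-fold (log2 1.76, SE 0.21, adjusted p = 0.000276). Serpinh1, the collagen chaperone HSP47 and the gene of these assembly lists with the highest level per length, was at 426 to 526 CPM in controls and at 516 to 743 CPM in cKO, and its log2 change of 0.35 did not pass (adjusted p = 0.0549). It passed without control replicate 1 (0.0371) or cKO replicate 1 (0.0409), with DESeq2 (0.0276), with upper-quartile scaling (0.0487) and after removal of trends with GC content and length (0.0137). The modifying enzymes P4ha2 and Colgalt2, named after their values were seen, were those that passed downward, with log2 changes of -0.38 (adjusted p = 0.00456) and -0.37 (adjusted p = 0.0227). For Colgalt2 the adjusted p was 0.0518 to 0.067 without control replicate 3 or 5 or cKO replicate 2, 3 or 4, and in the low set alone the adjusted p was 0.423 for Colgalt2 and 0.0534 for P4ha2.

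Of 8 genes that remove propeptides, 3 passed upward. Pcolce2, an enhancer of procollagen C-proteinase, was at 19.0, 17.4, 16.6, 19.3 and 15.1 CPM in controls and at 41.5, 51.5, 44.2 and 55.2 CPM in cKO, without overlap (2.75-fold, log2 1.46, SE 0.10, adjusted p = 2.4e-06). Pcolce, its relative with the highest level per length in this list, had a log2 change of 0.34 (SE 0.10, adjusted p = 0.0347), which did not pass without control replicate 2, 3, 4 or 5 or cKO replicate 2 or 4 (adjusted p 0.0592 to 0.1), with Xist as a covariate (0.0541) or in the low set alone (0.496). Of 6 cross-linking genes 3 passed upward. Lox, lysyl oxidase, which starts covalent cross-links between chains, was at 40.6, 38.4, 49.7, 54.1 and 58.9 CPM in controls and at 73.3, 67.0, 68.4 and 92.6 CPM in cKO. The groups did not overlap, and the change was 1.56-fold (log2 0.64, SE 0.14, adjusted p = 0.00821). Pxdn, peroxidasin, which cross-links type IV collagen and had the highest level per length of this list, had a log2 change of -0.20 (adjusted p = 0.0612) and passed without control replicate 3 (0.0486), with DESeq2 (0.0255), with the library set as a term (0.0256) and after removal of trends with GC content and length (0.0278).

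Among 11 tested proteoglycans and fibril organisers 0 were called by edgeR or DESeq2, and 1 passed upward by edgeR, with 2 higher and 1 lower at an unadjusted p under 0.05. The gene that passed was Bgn, named after its values were seen, which encodes the fibril-binding proteoglycan biglycan; its log2 change was 0.58 (SE 0.06, adjusted p = 5.71e-05), just under the fold threshold. Sparc, a collagen-binding matricellular protein and the gene of this list with the highest level per length, had a log2 change of 0.06 (adjusted p = 0.437).

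Collagen receptors had the highest share of calls among these lists, with 3 of 9 called and 4 passing upward, where 6.72% of all tested genes were called. In the low set alone Itga1 was called (adjusted p = 0.0101) and Itgb1 also passed (0.0292), whereas Itga11 (log2 0.46, adjusted p = 0.413) and Lair1 (0.125) did not. Itga1, a subunit of the collagen-binding integrin that prefers type IV collagen, was at 53.6, 57.6, 57.8, 75.5 and 63.2 CPM in controls and at 83.9, 103, 113 and 135 CPM in cKO. The groups did not overlap, and the log2 change was 0.82 (SE 0.13, adjusted p = 0.00155). Itga11, a receptor for fibrillar collagen on fibroblasts, was at 1.41, 1.51, 0.831, 1.04 and 1.23 CPM in controls and at 1.65, 2.04, 2.35 and 2.49 CPM in cKO, without overlap. It rose by 0.83 (SE 0.22, adjusted p = 0.0224), and its adjusted p was 0.0526, 0.0658 and 0.0686 without control replicate 4, cKO replicate 3 or cKO replicate 4. Lair1, an inhibitory collagen receptor of immune cells, was at 1.44, 1.85, 0.997, 0.472 and 0.614 CPM in controls and at 2.92, 2.41, 3.68 and 1.5 CPM in cKO, where cKO replicate 4 overlapped the controls. It rose by 1.28 (SE 0.38, adjusted p = 0.0392) and did not pass without control replicate 3, 4 or 5 or cKO replicate 1, 2 or 3 (adjusted p 0.0663 to 0.116). The 6 macrophage markers had a median log2 change of 0.40 and summed levels of 72.3 to 118 CPM in controls and 90.8 to 169 CPM in cKO; 0 passed by edgeR and 1 by DESeq2, 1 had an unadjusted p under 0.05, and none was at 0. Lyz2, a lysozyme gene with the highest level per length of that list, had a log2 change of 0.71 (adjusted p = 0.0717). The part of these markers in the change of Lair1 was not tested. Itgb1, the common beta subunit, had a log2 change of 0.41 (SE 0.15, adjusted p = 0.0958) and did not pass over all libraries. Besides the low set alone, it passed with DESeq2 (0.0412), with the replicate number as a block (0.0181), with the library set as a term (0.000588) and after removal of trends with GC content and length (0.0464).

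On the side of turnover, 1 of 8 tested proteases passed upward and 1 downward, and of 5 inhibitors 2 passed downward and 0 upward by edgeR or DESeq2, with 1 upward at an unadjusted p under 0.05. Mmp16, a membrane-bound metalloprotease, was at 4.27, 5.24, 5.87, 6.89 and 6.18 CPM in controls and at 4.17, 2.57, 2.90 and 3.27 CPM in cKO. It was called lower (log2 -0.82, SE 0.18, adjusted p = 0.00893), with cKO replicate 1 just below the lowest control. Timp4, an inhibitor of metalloproteases abundant in heart, was at 3.70, 3.16, 3.32, 4.94 and 5.53 CPM in controls and at 2.83, 1.96, 2.26 and 1.60 CPM in cKO, and was also called lower (log2 -0.94, SE 0.22, adjusted p = 0.0135). Mmp2, a gelatinase, and Timp2, the inhibitor that binds it, had the highest levels per length among proteases and inhibitors. Mmp2 changed by 0.16 (adjusted p = 0.161) and Timp2 changed by -0.12 (adjusted p = 0.276). Mmp14, a membrane-bound collagenase, and Timp3, a matrix-bound inhibitor, both named after their values were seen, passed at log2 changes of 0.43 (adjusted p = 0.00093) and -0.42 (adjusted p = 0.0227). Timp3 did not pass without control replicate 5 (0.0506), cKO replicate 2 (0.0691) or cKO replicate 4 (0.0566) or in the low set alone (0.109). In the low set alone neither Mmp16 (log2 -0.57, adjusted p = 0.265) nor Timp4 (log2 -0.55, adjusted p = 0.259) was called.

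Markers of collagen-producing cells were counted beside the collagens. Of 10 fibroblast markers, 1 passed upward (Tcf21, log2 0.48) and 2 downward (Mfap5, -0.54, and Scara5, -1.12, which was called), the median log2 change was -0.19, and the summed level was 1365 to 1549 CPM in controls and 1200.0 to 1649 CPM in cKO. Scara5 and Mfap5 are genes of adventitial and progenitor-like fibroblasts and Tcf21 is a transcription factor of resident fibroblasts. The list shares Dcn and Dpt with that of fibril organisers. Of 8 endothelial markers 1, Tek, passed downward (median -0.02), with sums of 1664 to 1794 and 1629 to 1758 CPM, and of 7 mural cell markers 1, Vtn, was called lower (median 0.15), with sums of 1231 to 1389 and 1340.2 to 1550 CPM. The markers with the highest level per length were Dpt for fibroblasts (log2 -0.26, adjusted p = 0.132), Cdh5 for endothelium (-0.07, 0.509) and Rgs5 for mural cells (0.11, 0.431), and none of these passed. No marker of these lists was at 0. Of 5 epicardial markers 1, Wt1, also the one with the highest level per length, passed downward, with sums of 22.2 to 83.2 CPM in controls and 20.6 to 33.9 CPM in cKO. The sum of 83.2 CPM was in control replicate 5. The median log2 change of these 5 was -0.63, but it was 1.22 within the low set and -0.54 within the high set. Only 1 of the 5 had the same sign in both sets. Of 7 skeletal muscle markers, summing to 1.73 to 2.36 CPM and 2.93 to 3.49 CPM, 2 were tested and 0 passed by edgeR or DESeq2, both having an unadjusted p under 0.05, and Pax7 and Myod1 were at 0. Mylpf had the highest level per length of that list (log2 0.75, adjusted p = 0.0705). The 8 cardiomyocyte markers, which identify the ventricle, were all detected and summed to 53599 to 62632 CPM in controls and 47982 to 52920.4 CPM in cKO. All 8 had estimates below 0 (median log2 change -0.14), and 1 passed downward by edgeR and 3 by DESeq2. The gene that passed by edgeR was Myl2, a myosin light chain, named after its values were seen (log2 -0.43, adjusted p = 0.00124), and Actc1, cardiac actin, had the highest level per length (log2 -0.14, adjusted p = 0.269). The part of cell composition in the collagen changes was not tested.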

How the data were processed

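RNA from mouse ventricles was sequenced by the authors after poly(A) selection with a stranded kit. They deposited raw read counts per gene for 9 libraries. The submitters' processing notes name the aligner STAR 2.4.2a, the counter HTSeq 0.6.1 and the build mm10; the annotation and the strand setting of counting are not given in the sources used here. GENCODE M21 identified 36345 of 38293 gene identifiers and gave exon lengths and coordinates. Library totals were 31011055 to 40073801, and no replicate pair agreed within counting noise (chi-square per gene 9.52 to 50.6).

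From the deposited counts, genes were filtered with filterByExpr (minimum count 10), scaled by TMM and compared with the quasi-likelihood test of edgeR 4.0.16 in R 4.3.3, with genotype as the only term, over 15318 genes with Benjamini-Hochberg adjustment. A gene passed at an adjusted p under 0.05 and was called if the fold change was also over 1.5. CPM values, counts scaled to a common library size, use TMM-adjusted totals, levels between genes are CPM per kb of exon, and a pseudocount of 0.5 was added to CPM on the log2 scale. Alternatives were DESeq2 1.42.0, other scalings and filters, the replicate number, the library set or Xist as terms, the low set alone, other thresholds, each library left out and, chosen after the data were seen, removal of GC content and length trends, for which 99.1% of tested genes had values, and chain ratios permuted within sets. 2 listed genes are not reported here. The fitting code was tested on simulated data. All collagens were accounted for. Per-library values were given for those called or passing and for the 2 with the highest control level per length in each class. From each other list the called genes, at most 4, and the gene with the highest level per length were named. Members, gene lists and the library sets were chosen with earlier results of these data known. Marker lists covered cardiomyocytes, fibroblasts, endothelial, mural, Schwann, epicardial, cartilage, skeletal muscle and macrophage cells.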

Additional observations from a re-analysis of the deposited data

Results flagged for a closer look

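Of 132 groups of libraries examined for a single library far from the rest, 9 were picked out; chance alone picks about 1 in 20. Among control libraries, Col4a5 was at 147 CPM in control replicate 3 against 160.0 to 163 CPM in the others, and Col4a6 was at 8.28 CPM in control replicate 5 against 5.21 to 5.99 CPM. Col6a5 was at 2.17 CPM in control replicate 5 against 0 to 0.0903 CPM, Col9a2 at 3.88 CPM in control replicate 1 against 1.88 to 2.39 CPM, and Col19a1 at 0.145 CPM in control replicate 2 against 0 to 0.0315 CPM.

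Among cKO libraries, Col5a2 was at 359 CPM in cKO replicate 4 against 314 to 318 CPM, and Col11a1 was at 30.2 CPM in the same library against 16.6 to 18.7 CPM. In cKO replicate 2 the summed level of all collagens was 15244 CPM against 12999.6 to 13369 CPM, and the Col1a1 to Col1a2 ratio was 1.13 against 0.871 to 0.879.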

How the results depend on the processing

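Collagen calls were 8 higher and 1 lower. In the low-set libraries alone they were 5 higher and 0 lower, with 1 lower at an unadjusted p under 0.05 by edgeR and 620 calls over all 15599 tested genes against 1030, and the median log2 change of the tested collagens was 0.21; this fit has 5 libraries. Without the fold threshold they were 16 higher and 2 lower. Without each library in turn, the calls were 8 to 10 higher and 1 lower, and the median was 0.30 to 0.39. For the assembly, receptor and turnover genes, 19 higher and 5 lower passed without the fold threshold. In the low set alone 4 were called higher (7 passed) and 0 lower (6 lower at an unadjusted p under 0.05). At an adjusted p under 0.01, 1 was called lower, and Itga11 and Lair1 were no longer called higher. With the replicate block 1 was called lower, and without each library in turn 4 to 6 were higher and 2 lower. Replicate numbers did not pair the libraries, since same-numbered libraries had deviations correlated at -0.05, 0.07, -0.01 and 0.30 and 0 of 4 cKO libraries correlated best with their own number. The replicate block gave 888 calls over all genes against 1030, and 9 collagens higher and 1 lower; Col7a1 (adjusted p = 0.134), Col25a1 (0.137), Col27a1 (0.051), Pcolce (0.115), P4hb (0.11), P3h3 (0.0551), Colgalt2 (0.077), Mrc2 (0.0725), Itga11 (0.0891) and Timp4 (0.0595) no longer passed, and Col24a1 (0.0186), Fmod (0.0335) and Itgb1 (0.0181) did. Col25a1 also did not pass beside a term for the library set (0.0556). Of 778 single-gene values for collagens across alternatives, 702 kept their side of the threshold, 51 lost it, 25 gained it and 0 reversed. Of 1379 for the other genes these were 1257, 81, 41 and 0. A reversal was counted only where the gene passed in the main fit or in the alternative. Estimates that did not pass changed sign in some alternatives, as for Col5a3, Col9a1, Col11a2 (log2 -0.32 to 0.15) and Col18a1 (-0.04 to 0.22). No chain ratio passed under any alternative, but no single ratio could have passed there. Permuted within the sets, 40 assignments give a smallest possible exact permutation p of 0.025, which adjustment over 6 ratios takes above 0.05. With a library left out there are also too few assignments for a single ratio to pass. Too few counts left 5 collagens untested (at most 8 per library, except 67 for Col6a5 in control replicate 5), and the high set has 1 cKO library.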
